A study of Mus musculus with 5 samples.

Results

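The CD300 receptor family was examined in cocultured bone marrow-derived macrophages (BMDMs). Its members were chosen by name as *Cd300a*, *Cd300c2*, *Cd300e*, *Cd300lb*, *Cd300ld*, and *Cd300lf*, which are 6 genes, of which 5 had a count among the 17057 genes with a count in at least 1 library. Macrophages grown from the marrow of Balb/c mice 6 to 12 weeks old, differentiated with M-CSF, shared medium for 48 hours with 4T1 cells, a mouse mammary carcinoma line, across a porous membrane. In 2 libraries the cancer cells were WT, and in 3 they lacked *Adam17*, the gene of a sheddase that releases membrane-bound growth factors and cytokines. All 3 *Adam17-/-* libraries carry the same knock-out designation, 2.8, and what the loss of *Adam17* did cannot be told apart from whatever else sets this line apart. The macrophages themselves carried no deletion, and their own *Adam17* level therefore checks no label. Nothing in the labels says whether libraries of a group came from separate animals, and the p-values measure the spread between these libraries.

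CD300 proteins are single-pass receptors of myeloid cells with 1 immunoglobulin-like domain, and several bind lipids such as phosphatidylserine and ceramide that are exposed on dying cells or carried in membranes. They form a paired family. Inhibitory members carry tyrosine motifs in their tails that recruit phosphatases, whereas activating members have short tails and signal through adaptors with activating motifs. In macrophages and mast cells, the family is known for setting thresholds of activation and for modulating the uptake of dying cells.

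*Cd300ld*, an activating receptor, was 45.0% lower after *Adam17-/-* coculture, and *Cd300lf*, an inhibitory receptor, was 36.5% higher. *Cd300c2*, an activating receptor, was 16.8% lower. The call for *Cd300ld* held in all 15 alternative fits, that for *Cd300lf* in 14, and that for *Cd300c2* in 7. Not all of these are separate checks. For *Cd300ld* and *Cd300c2*, the fit on the most abundant transcript repeats the reported fit. Summing relatives of *Cd300ld*, another alternative, leaves the counts of *Cd300lf* and *Cd300c2* unchanged. *Cd300lb* and *Cd300a* did not pass the test, and *Cd300e* was listed in no library. Of the 5 members tested, 3 passed at an adjusted p of 0.05 or less, beside 31.7% of all 12576 genes tested. Among the members 1 rose and 2 fell, beside 14.9% of all genes that rose and 16.8% that fell. None of the 5 reached an absolute log2 fold change of 1 (edgeR; 3 of them had an unadjusted p under 0.05), which 3.36% of all genes passed upward and 0.867% downward. The median log2 fold change was -0.16 over the 5 members and 0.01 over all genes tested.

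Levels are counts scaled to the library total and edgeR's TMM factors (CPM), given as mean ± SD. Fold changes are *Adam17-/-* over WT coculture, each with its standard error, and adjusted p-values are from edgeR's 2-sided quasi-likelihood test with Benjamini-Hochberg adjustment over all genes tested. The libraries held between 14658690 and 20788371 counts, so that 3 counts correspond to 0.157 to 0.197 CPM. The WT libraries differed more from each other (chi-square per degree of freedom over genes, 25.7) than the *Adam17-/-* libraries did (5.22 to 6.32), and fits that leave out a WT library take their spread from the *Adam17-/-* libraries alone. The markers of macrophages that were listed, such as *Csf1r* and *Adgre1*, were present in every library with a summed level of 17833 CPM or more. *Epcam*, which marks epithelial cells such as 4T1, had 1 count in 1 library and 0 in the others.

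The family lies almost whole in a cluster on mouse chromosome 11. In build GRCm38.p6, *Cd300a* was annotated on the plus strand at chr11:114889152-114901946, and the other members were annotated on the minus strand. *Cd300lb* lay at chr11:114922779-114934371, *Cd300ld* at chr11:114982443-114989886, and *Cd300c2* at chr11:114996721-115004261. *Cd300e* lay at chr11:115051917-115066676 and *Cd300lf* at chr11:115116214-115135372. Between and beside them lay 5 further family genes, *Cd300c*, *Cd300ld2*, *Cd300ld3*, *Cd300ld4*, and *Cd300ld5*, while *Cd300lg* lay apart from the cluster on the same chromosome.

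Among the inhibitory receptors, *Cd300lf* stood at 183 and 151 CPM in WT replicates 1 and 2 and at 221, 222, and 240 CPM in *Adam17-/-* replicates 1, 2, and 3. Every *Adam17-/-* library was above both WT libraries. The mean was 228 ± 10.5 CPM (n = 3) against 167 ± 22.5 CPM (n = 2), a log2 fold change of 0.45 (SE 0.099, edgeR adjusted p = 0.00883). Over the alternative fits, the log2 fold change lay between 0.32 and 0.60. The files list 2 transcripts of *Cd300lf*, of 1885 and 1864 bases. The longer took 63.5% and 58.3% of the gene's counts in WT coculture and 61.7%, 59.6%, and 59.6% in *Adam17-/-* coculture. These shares overlapped between the groups (2-sided exact permutation test, p = 0.8; the smallest p that 2 against 3 libraries allow is 0.1).

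*Cd300a*, the other inhibitory member, recruits phosphatases through its tail and binds phosphatidylserine and phosphatidylethanolamine. It measured 48.9 and 43.9 CPM in WT coculture and 48.8, 54.0, and 51.4 CPM in *Adam17-/-* coculture. The groups overlapped narrowly on this scale, with 1 *Adam17-/-* library just under the higher WT library. Its log2 fold change was 0.15 (SE 0.0926, edgeR adjusted p = 0.256). On the authors' FPKM scale, which is relative to library size and transcript length, the groups did not overlap, at 9.82 and 9.22 against 11.2, 12.2, and 11.6. With library size as the only scaling, the log2 fold change was 0.29 with an edgeR adjusted p of 0.0318, a scaling under which the median over all tested genes was 0.16. Leaving out WT replicate 2 gave 0.07 with an edgeR adjusted p of 0.568.

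The activating receptor *Cd300ld* pairs with the Fc receptor gamma chain, the product of *Fcer1g*. The libraries held 121 and 114 CPM in WT coculture and 59.4, 67.8, and 66.4 CPM in *Adam17-/-* coculture. The groups were far apart, and the libraries within each lay close together. The mean fell from 117 ± 4.55 CPM (n = 2) to 64.6 ± 4.49 CPM (n = 3), a log2 fold change of -0.86 (SE 0.0884, edgeR adjusted p = 0.000403). Over the alternative fits, *Cd300ld* had log2 fold changes between -0.94 (summed with relatives, as described further on) and -0.70.

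*Cd300c2*, which can signal through the Fc receptor gamma chain or the *Tyrobp* adaptor, stood at 171 and 189 CPM in WT coculture and at 152, 148, and 149 CPM in *Adam17-/-* coculture. On this scale the groups did not overlap, and the 3 *Adam17-/-* libraries differed little among themselves. The mean was 180 ± 12.6 CPM (n = 2) against 150 ± 2.14 CPM (n = 3), a log2 fold change of -0.26 (SE 0.0805, edgeR adjusted p = 0.0327). The call was lost in 8 of 15 alternative fits, including each fit that left out 1 *Adam17-/-* library (edgeR adjusted p = 0.139, 0.144, and 0.137 without replicates 1, 2, and 3). On the FPKM scale the groups overlapped, at 146 and 169 against 149, 143, and 144.

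*Cd300lb*, an activating receptor that signals through the adaptor made by *Tyrobp*, measured 317 and 291 CPM in WT coculture and 270, 283, and 264 CPM in *Adam17-/-* coculture. The groups did not overlap on this scale, although the highest *Adam17-/-* library and the lower WT library were close. On the FPKM scale they overlapped, at 104 and 99.4 against 101, 104, and 97.1. Its log2 fold change was -0.16 (SE 0.0814, edgeR adjusted p = 0.162). Leaving out WT replicate 2 gave -0.22 with an edgeR adjusted p of 0.0289, and library size as the only scaling gave -0.01. In all, 4 of the 5 members tested had groups that did not overlap on the CPM scale, beside 58.1% of all genes tested. Of these, 1 was higher and 3 were lower with *Adam17-/-* 4T1 cells, beside 28.4% and 29.7% of all genes.

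*Cd300e* encodes an activating receptor of monocytes that signals through the *Tyrobp* adaptor. It had no entry in any of the 5 libraries. The files list transcripts from an FPKM of 0.01 upward, and whether *Cd300e* was under that limit or outside the transcript set cannot be told apart.

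**Figure D1:**
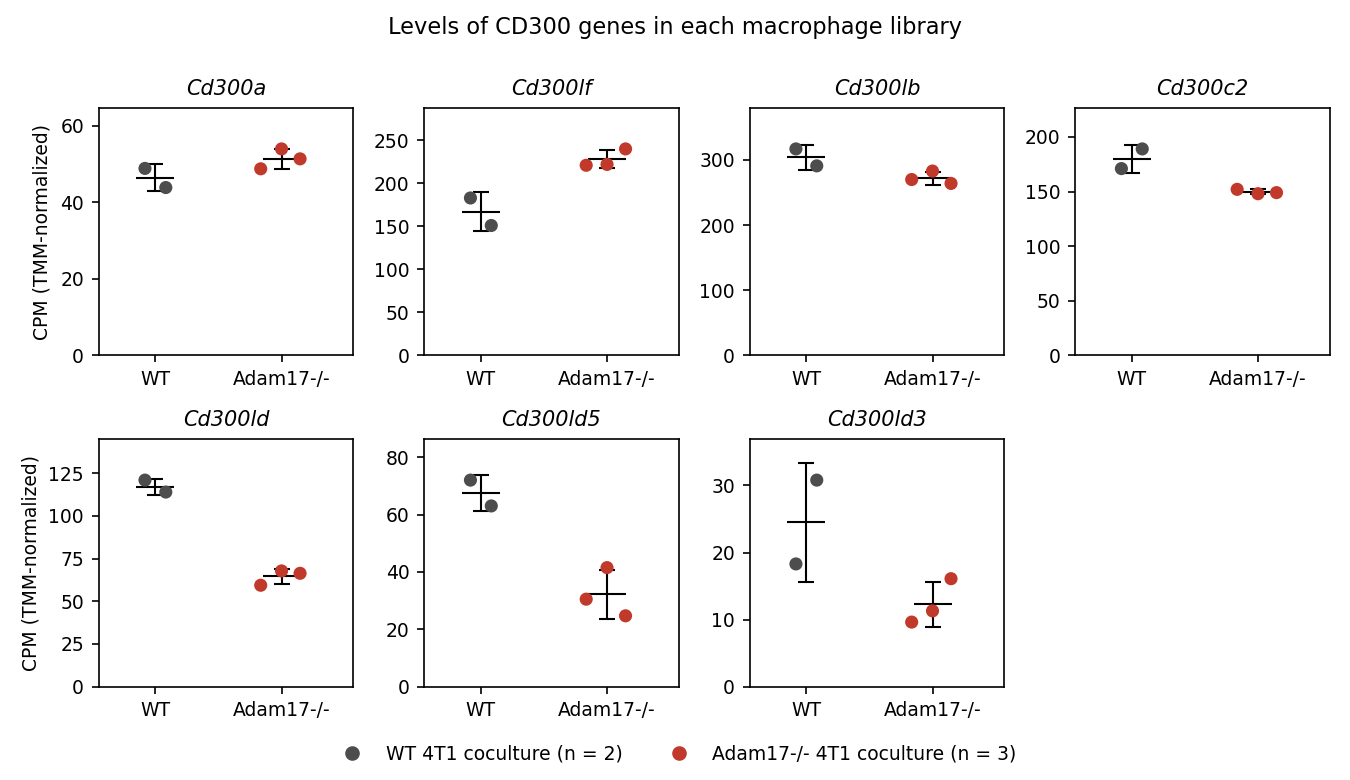
TMM-normalized CPM (each vertical axis from 0) of 5 CD300 members and of *Cd300ld5* and *Cd300ld3* in every library; points are libraries, horizontal bars with whiskers the mean and SD, grey for WT (n = 2) and red for *Adam17-/-* coculture (n = 3). *Cd300lf* was higher in each *Adam17-/-* library, while *Cd300ld*, *Cd300ld5*, and *Cd300ld3* were lower in each.

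Of the 6 other family genes listed, 4 had a count and 2 passed the filter on low counts. Both of these fell. *Cd300ld5*, a close relative of *Cd300ld*, stood at 72.0 and 63.0 CPM in WT coculture and at 30.5, 41.5, and 24.7 CPM in *Adam17-/-* coculture. The lowest WT library was well above the highest *Adam17-/-* library, and the log2 fold change was -1.07 (SE 0.175, edgeR adjusted p = 0.00239). *Cd300ld3* stood at 18.3 and 30.8 CPM in WT coculture and at 9.63, 11.3, and 16.1 CPM in *Adam17-/-* coculture. Here the groups nearly met, and the log2 fold change was -0.98 (SE 0.242, edgeR adjusted p = 0.0141). Without *Adam17-/-* replicate 1 or 2, the call for *Cd300ld3* was lost (edgeR adjusted p = 0.0655 and 0.0633), and without WT replicate 2 its log2 fold change was -0.56. *Cd300lg* had 14 and 10 counts in WT coculture and 9, 8, and 7 in *Adam17-/-* coculture, and *Cd300c* had 1 and 0 against 0, 3, and 1. Both were under the filter. *Cd300ld2* and *Cd300ld4* had no entry in any library. As for *Cd300e*, being under the FPKM limit and being outside the transcript set cannot be told apart for them.

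Counts of these close relatives cannot be fully separated. The authors' expected counts divide a read that matches several transcripts among them. In reference transcripts, 100% of the 50-base stretches of *Cd300ld5* also occurred in another family transcript, 93.8% of them in *Cd300ld4* and 82.1% in *Cd300ld3*. For *Cd300ld* the share was 3.89%, mostly with *Cd300lf*. For *Cd300lf* it was at most 5.57%, for *Cd300c2* 8%, for *Cd300a* 1.98%, and for *Cd300lb* 0%. *Cd300ld5* and *Cd300ld3* were therefore also summed before the fit, a choice made after seeing the data. Their sum was 90.2 and 93.8 CPM in WT coculture and 40.1, 52.8, and 40.8 CPM in *Adam17-/-* coculture. Summing brought the WT libraries close together, and the log2 fold change was -1.05 (SE 0.12, edgeR adjusted p = 0.00057). Within that sum, *Cd300ld3* took 20.2% and 32.8% in WT coculture and 24.0%, 21.4%, and 39.5% in *Adam17-/-* coculture, with ranges that overlapped. With *Cd300ld* added as well, the sum was 211 and 208 CPM in WT coculture and 99.6, 121, and 107 CPM in *Adam17-/-* coculture (log2 fold change -0.94, SE 0.0934, edgeR adjusted p = 0.000372).

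The promoters of these genes were examined because *Cd300ld*, *Cd300ld3*, and *Cd300ld5* fell together. RefSeq windows from 250 bases before to 50 bases after the annotated start (GRCm38.p6) were found for 10 family genes. The window of *Cd300ld* was 87.5% identical to that of *Cd300ld5* over 257 aligned columns, the windows of *Cd300ld3* and *Cd300ld5* were 95.3% identical over 299, and those of *Cd300ld4* and *Cd300ld5* were 100% identical over 300. Both strands were searched for GAGGAAG, the core of sites bound by PU.1, a transcription factor of myeloid cells. This motif was in 6 of the 10 family windows and in 13.6% of 32851 promoters of the same length. The 6 were those of *Cd300a*, *Cd300ld*, *Cd300ld3*, *Cd300ld4*, *Cd300ld5*, and *Cd300lf*, and thus included genes that fell, a gene that rose, and a gene that did not pass the test. As the windows of *Cd300ld*, *Cd300ld3*, *Cd300ld4*, and *Cd300ld5* are so much alike, their matches are not independent, and no enrichment can be read from the count. The motif began 143 bases before the start in *Cd300ld* and 187 bases before it in *Cd300ld3*, *Cd300ld4*, and *Cd300ld5*, and *Cd300lf* held a second match at its start. Stretches of 80 bases around it are shown 5′ to 3′ in the direction of the gene, to set the relatives that fell beside *Cd300lf* and *Cd300a*, with the motif in capitals (written as CTTCCTC where it lies on the opposite strand):
*Cd300ld* (chr11:114989990-114990069, minus strand): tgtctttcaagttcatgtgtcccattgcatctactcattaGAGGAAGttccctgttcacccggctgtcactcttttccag
*Cd300ld5* (chr11:115037838-115037917, minus strand): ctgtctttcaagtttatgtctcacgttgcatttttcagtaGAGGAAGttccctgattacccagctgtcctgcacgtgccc
*Cd300ld3* (chr11:115048478-115048557, minus strand): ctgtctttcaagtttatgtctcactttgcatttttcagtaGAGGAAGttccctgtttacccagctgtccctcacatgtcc
*Cd300lf* (chr11:115133997-115134076, minus strand): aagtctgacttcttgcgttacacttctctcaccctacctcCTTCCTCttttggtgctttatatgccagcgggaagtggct
*Cd300a* (chr11:114889961-114890040, plus strand): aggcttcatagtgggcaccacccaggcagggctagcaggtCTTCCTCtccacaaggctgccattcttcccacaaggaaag
Of the 5 genes shown, *Cd300ld* has its start at the outer limit of the annotated gene, and the starts used for the others lie inside those limits. Other motifs were searched for on both strands, and none of their matches overlapped one of GAGGAAG. The AP-1 site TGANTCA was in 0 of the 10 windows (7.81% of all promoters). The C/EBP half-site pair TTGCNNAA was in that of *Cd300a* (10.8%), and the IRF motif, a pair of GAAA with any 2 letters between, was in those of *Cd300c* and *Cd300c2* (3.44%). A match of letters describes the window and is not evidence that a factor binds there.

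Levels of different genes can be compared per length, on the FPKM scale. In WT coculture the order of the members was *Cd300c2* (158 ± 16.2), *Cd300lb* (102 ± 2.96), *Cd300lf* (86.5 ± 8.86), *Cd300ld* (46.5 ± 0.311), and *Cd300a* (9.52 ± 0.424), each as mean FPKM ± SD with n = 2. No neighbors in that order had overlapping ranges. In *Adam17-/-* coculture the order was *Cd300c2* (145 ± 2.96), *Cd300lf* (131 ± 5.53), *Cd300lb* (101 ± 3.65), *Cd300ld* (28.3 ± 1.8), and *Cd300a* (11.7 ± 0.537), with n = 3, and again no neighbors overlapped. *Cd300lf* and *Cd300lb* thus exchanged places between the groups. The ratio of *Cd300lf* to *Cd300lb* was 0.895 and 0.807 in WT coculture and 1.27, 1.22, and 1.41 in *Adam17-/-* coculture. By mean FPKM over all libraries, *Cd300c2* ranked 384th of 17057 genes, *Cd300lf* 549th, *Cd300lb* 622nd, *Cd300ld* 2070th, and *Cd300a* 5763rd. Among the other family genes, *Cd300ld5* (85.2 ± 5.28 FPKM in WT coculture) had a range that overlapped that of *Cd300lf*.

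**Figure D2:**
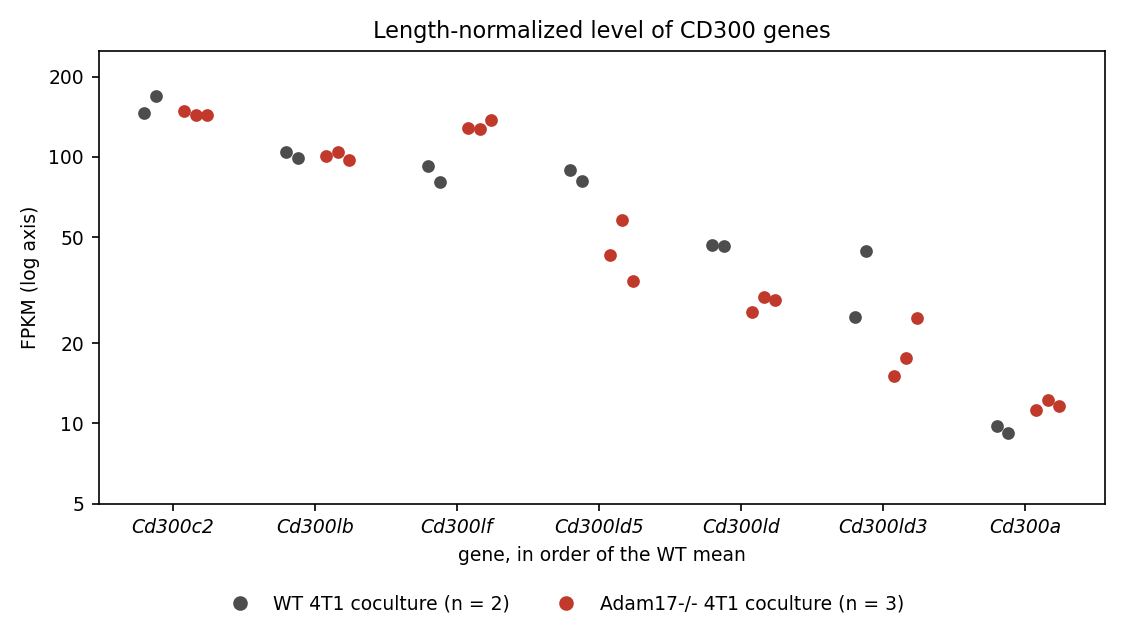
FPKM (log axis) of 7 CD300 genes in every library, in order of the WT mean; points are libraries, grey for WT (n = 2) and red for *Adam17-/-* coculture (n = 3). *Cd300lf* lay below *Cd300lb* in both WT libraries and above it in all 3 *Adam17-/-* libraries, while *Cd300c2* led and *Cd300a* was lowest in both groups.

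The summed FPKM of the members differed little between the groups, at 399 and 404 in WT coculture and 415, 417, and 419 in *Adam17-/-* coculture, whereas its makeup differed. The direction of the small difference in the sum depended on the scale. On the CPM scale the sum was 789 to 840 in WT coculture and 752 to 775 in *Adam17-/-* coculture. *Cd300ld* made up 11.7% and 11.4% of the summed FPKM in WT coculture and 6.33%, 7.11%, and 6.91% in *Adam17-/-* coculture. *Cd300lf* made up 23.2% and 19.8% in WT coculture and 30.9%, 30.5%, and 32.8% in *Adam17-/-* coculture. *Cd300lb* and *Cd300c2* together held the larger part in every library. The ratio of the inhibitory members (*Cd300a* and *Cd300lf*) to the activating members (*Cd300lb*, *Cd300c2*, and *Cd300ld*) was 0.346 and 0.284 in WT coculture and 0.506, 0.503, and 0.551 in *Adam17-/-* coculture. Such ratios within a library do not depend on how libraries are scaled, and they are given here as a description, with no test. Activating transcripts outnumbered inhibitory ones per length in all 5 libraries.

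The receptors act through shared adaptors, kinases, and phosphatases. Described here are 16 genes of these classes, whether or not each is known to act with a CD300 receptor. All were tested. At an edgeR adjusted p of 0.05 or less, 0 rose and 6 fell, beside 14.9% of all genes that rose and 16.8% that fell. The other 10 of the 16 did not pass. The median log2 fold change of the 16 was -0.20. At an unadjusted p under 0.05, 1 of the 16, *Inpp5k*, was higher, and it passed with library size as the only scaling (log2 fold change 0.33, edgeR adjusted p = 0.0114). *Tyrobp*, an adaptor of *Cd300lb*, *Cd300e*, and *Cd300c2*, measured 488 and 471 CPM in WT coculture and 350, 329, and 365 CPM in *Adam17-/-* coculture. It fell in each *Adam17-/-* library, with a log2 fold change of -0.46 (SE 0.0812, edgeR adjusted p = 0.00332), and held its call in 13 of 13 alternative fits. *Fcer1g*, an adaptor of *Cd300ld* and *Cd300c2*, measured 344 and 363 CPM in WT coculture and 317, 301, and 316 CPM in *Adam17-/-* coculture (log2 fold change -0.18, edgeR adjusted p = 0.102; without WT replicate 1, -0.22 and 0.0351, and with library size as the only scaling, -0.04 and 0.747). *Hcst*, an adaptor with a motif for phosphoinositide 3-kinase, was low, between 2.70 and 4.54 CPM, with groups that overlapped (log2 fold change 0.00, edgeR adjusted p = 0.997).

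Of the phosphatases, *Inpp5d*, which removes a phosphate from the lipid product of phosphoinositide 3-kinase, measured 640 and 586 CPM in WT coculture and 450, 477, and 461 CPM in *Adam17-/-* coculture. The groups did not overlap, and the log2 fold change was -0.41 (SE 0.0815, edgeR adjusted p = 0.00594). Its call held in 12 of 13 alternative fits. With a block for replicate number it was lost (log2 fold change -0.40, edgeR adjusted p = 0.0601). *Ptpn6*, the tyrosine phosphatase that inhibitory CD300 tails recruit, measured 308 and 279 CPM against 230, 250, and 237 CPM, a log2 fold change of -0.29 (SE 0.0834, edgeR adjusted p = 0.0249). Its call was lost in 8 of 13 alternative fits, among them those without any 1 of the *Adam17-/-* libraries (edgeR adjusted p = 0.136, 0.0615, and 0.0977 without replicates 1, 2, and 3). Its relative *Ptpn11* had a log2 fold change of -0.21 (edgeR adjusted p = 0.0641; 0.0359 and 0.0344 without WT replicate 1 and 2, and with library size as the only scaling -0.06 and 0.541), and *Inpp5k* one of 0.18 (edgeR adjusted p = 0.0972). Among the 9 kinases and effectors, *Lyn*, *Pik3cg*, and *Plcg2* fell, with log2 fold changes between -0.53 and -0.26, and the other 6 did not pass. Phospholipase C gamma 2, the product of *Plcg2*, acts downstream of activating motifs. Its gene had the largest fall among those 9, from 325 and 310 CPM to 221, 217, and 224 CPM (log2 fold change -0.53, SE 0.0755, edgeR adjusted p = 0.00136).

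**Figure D3:**
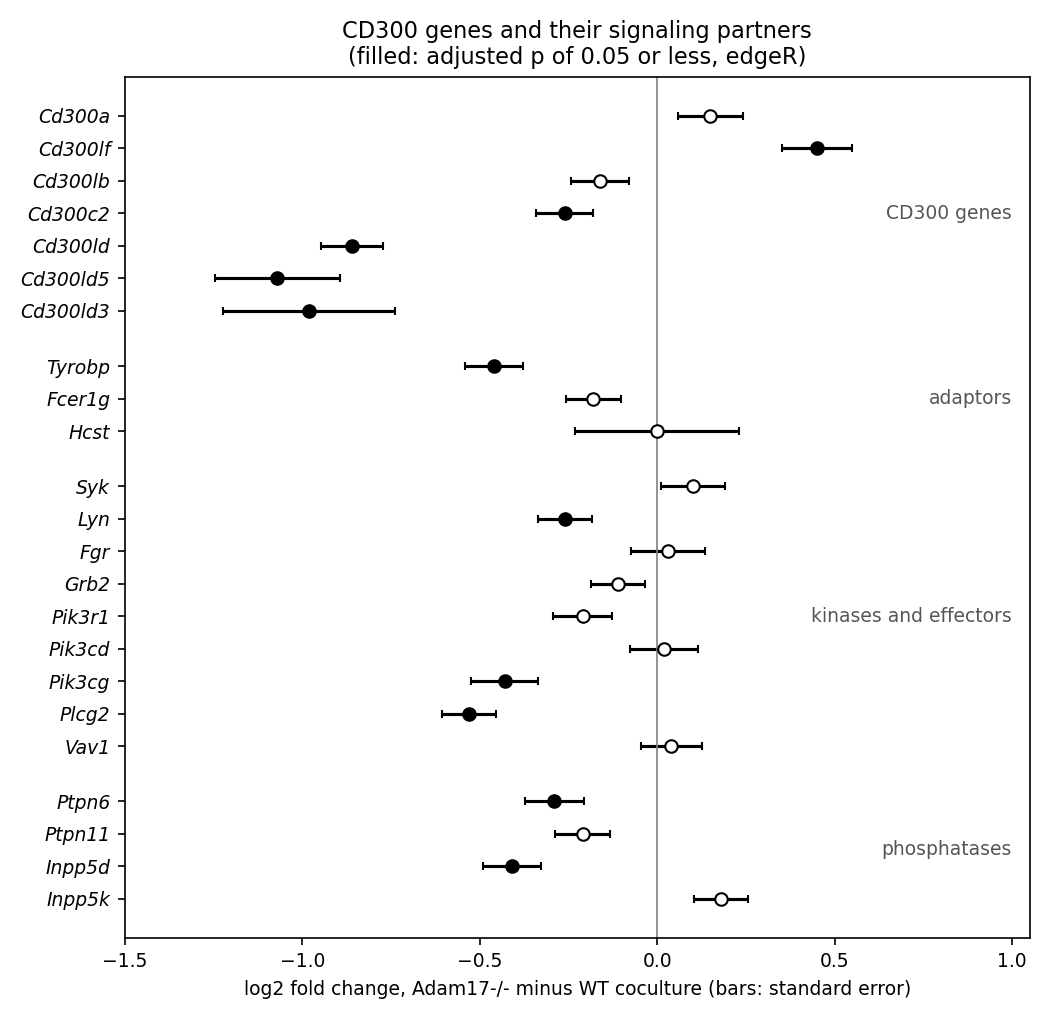
Log2 fold change (*Adam17-/-* minus WT coculture, horizontal axis) with its standard error for 7 CD300 genes and 16 partner genes grouped by role; filled circles had an edgeR adjusted p of 0.05 or less. *Cd300lf* was the only filled circle to the right of 0, at 0.45, and 6 of the 16 partners were filled, all to the left.

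Markers of other cell types moved with the groups. Over all genes tested, 14.9% rose and 16.8% fell at an edgeR adjusted p of 0.05 or less. Of 11 neutrophil markers, 9 rose and 2 did not pass, with a summed level of 334 to 407 CPM in WT coculture and 1160 to 1337 CPM in *Adam17-/-* coculture. All 11 had counts in every library. The largest rise was in *Ltf*, the gene of a granule protein, from 20.8 and 18.2 CPM to 83.4, 107, and 75.3 CPM (log2 fold change 2.18), and *S100a9*, an alarmin abundant in neutrophils, was at 216 and 173 CPM against 683, 630, and 625 CPM. Monocyte markers rose in 4 of 4 cases, from a sum of 122 to 139 CPM to one of 181 to 215 CPM, with the largest rise in *Ly6c2* (log2 fold change 1.81). Macrophage markers fell in 6 of 8 cases, from a sum of 27516 to 28228 CPM to one of 17833 to 19813 CPM. The largest fall was in *Cd68* (log2 fold change -0.93), and *Tyrobp*, *Cd300ld*, and *Cd300c2* fell beside these markers. *Lyz2* (12836 and 12525 CPM in WT coculture) and *Itgam* (6844 and 7413 CPM) had the highest levels in the sum. *Csf1r* (-0.29, edgeR adjusted p = 0.052) and *Mertk* (-0.06, edgeR adjusted p = 0.572) did not pass. Of 5 dendritic cell markers, 3 were tested and *Ccr7* rose, with sums of 5.57 to 10.2 CPM against 9.87 to 15.2 CPM. Markers of mast cells, basophils, and eosinophils summed to at most 6.25 CPM and those of lymphocytes to at most 1.97 CPM, with *Tpsb2* and *Cd3g* listed in no library, and 0 of the 3 tested passed (edgeR; 1 at an unadjusted p under 0.05). Epithelial markers summed to 11.5 to 13.1 CPM in WT coculture and 11.8 to 14.2 CPM in *Adam17-/-* coculture, nearly all of it *Cdh1*. CD300 genes are expressed by monocytes and neutrophils as well as macrophages. In these bulk libraries, a change in the number of cells of a type and a change in RNA per cell cannot be told apart, and the part of other cells in the CD300 results was not tested.

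Genes beside the cluster were examined to see whether its members moved with their surroundings. Within 250 kb on either side and between the members, 21 other genes were annotated, 15 had a count, and 10 were tested. Of these, 3 rose and 2 fell, beside the same shares of all genes (14.9% and 16.8%), and their median log2 fold change was 0.15. *Gprc5c*, the neighbor before *Cd300a*, had 16 and 17 counts in WT coculture and 56, 18, and 35 in *Adam17-/-* coculture. Its counts were low and uneven within the *Adam17-/-* group (log2 fold change 1.22, edgeR adjusted p = 0.0488), and the call was lost in 7 of 13 alternative fits, with edgeR adjusted p-values of 0.117 and 0.072 without WT replicate 1 or 2 and of 0.144 and 0.0818 without *Adam17-/-* replicate 1 or 3. *Rab37*, a small GTPase gene whose span holds *Cd300lf* on the opposite strand with 0 exon bases shared, had 11 and 10 counts against 30, 16, and 30 (log2 fold change 1.36, edgeR adjusted p = 0.0194). Its call was lost in 6 of 13 alternative fits, with edgeR adjusted p-values of 0.0606 and 0.0576 without WT replicate 1 or 2 and of 0.0577 without *Adam17-/-* replicate 1 and without replicate 3. *Cd300lf* had at least 2789 counts in every library, many times those of *Rab37*, and the libraries do not mark strand. *Slc9a3r1*, on the far side of *Cd300lf*, had a log2 fold change of -0.21 (edgeR adjusted p = 0.119; without WT replicate 1, -0.10 and 0.366, and without WT replicate 2, -0.31 and 0.008). The largest fall among the neighbors was in *Tmem104*, at 176 and 140 CPM against 97.4, 107, and 101 CPM (log2 fold change -0.63, edgeR adjusted p = 0.00265). The CD300 genes that fell lay in a row, from *Cd300ld* at 93.3 kb from *Cd300a* to *Cd300ld3* at 153.0 kb. No gene that rose lay among them, and *Cd300lf*, which rose, lay at 227.1 kb. A cause of this arrangement was not tested.

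**Figure D4:**
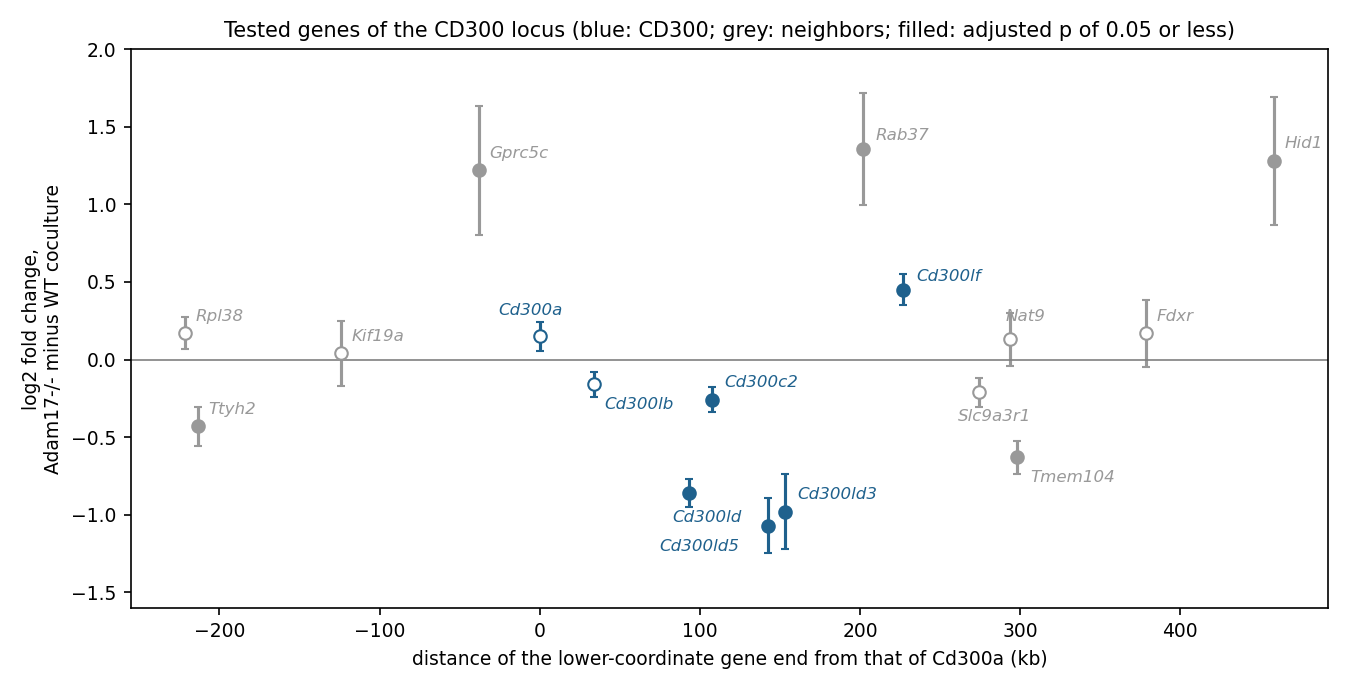
Log2 fold change (*Adam17-/-* minus WT coculture, vertical axis, bars are standard errors) of the tested genes of the CD300 locus by distance from *Cd300a* in kb; blue marks CD300 genes, grey their neighbors, and filled circles an edgeR adjusted p of 0.05 or less. *Cd300ld*, *Cd300ld5*, and *Cd300ld3*, the CD300 genes that fell most, lay at 93.3, 142.3, and 153.0 kb, with *Cd300c2* at 107.6 kb and a log2 fold change of -0.26.

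For each member tested, the genes with the most similar profile were sought among 8486 genes with a mean of 10 CPM or more, as the root mean square difference of log2 CPM centred on each gene's mean over the 5 libraries. The profile of *Cd300ld* was closest to those of *Nrp2* (0.0223), *Hspa5* (0.032), and *Prep* (0.0419). *Nrp2* encodes a coreceptor of semaphorins and vascular growth factors, and *Hspa5* a chaperone of the endoplasmic reticulum. The profile of *Cd300lf* was closest to those of *Ice2* (0.0265), *Vegfa* (0.0317), which encodes a growth factor of blood vessels, and *Siglece* (0.0387), which encodes another inhibitory receptor of myeloid cells. For *Cd300lb* the nearest were *Zmat3*, *Pgs1*, and *Kdm5c*, for *Cd300c2* *Cct8*, *Glud1*, and *Itfg1*, and for *Cd300a* *Zfp276*, *Cog4*, and *Zfyve26*, with differences between 0.0129 and 0.03. The 5 points of each profile share their libraries, and the likeness is a description.

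**Figure D5:**
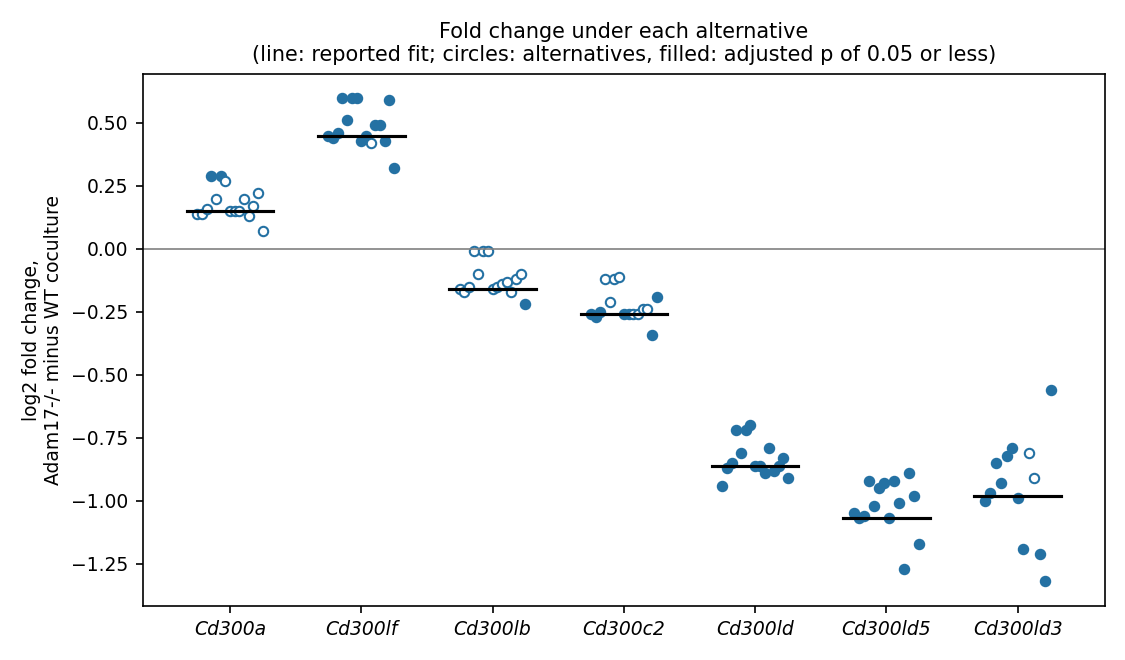
Log2 fold change (*Adam17-/-* minus WT coculture, vertical axis) of 7 CD300 genes in the reported fit (black line) and in each alternative fit (circles, filled at an adjusted p of 0.05 or less). Every alternative kept the sign of the reported value, and *Cd300ld* stayed between -0.94 and -0.70, whereas the circles of *Cd300lb* and *Cd300c2* reached -0.01 and -0.11.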

How the data were processed

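RNA-Seq of 5 BMDM libraries (2 WT and 3 *Adam17-/-* 4T1 coculture, grouped by the labels) was analyzed. The authors sequenced 150 bp paired-end reads on a BGISEQ-500 and aligned them to GRCm38 with HISAT. They quantified transcripts with Bowtie2, and the submitters' processing notes also name RSEM, Bowtie, DESeq2, and mm10. Tool versions are not given in the sources used here. For each transcript the authors deposited an expected count, without normalization, beside its FPKM. The library preparation does not mark strand. The share of counts in the 1 row per library with no gene ID was at most 8.61e-05%, and that row was left out.

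Sums of the expected counts over each gene's transcripts were rounded (13.2% to 14.0% of sums were not whole within 0.02). Of 17057 gene IDs, 17015 matched a RefSeq symbol. The test used R 4.3.3 and edgeR 4.0.16 (TMM, filterByExpr, glmQLFit, glmQLFTest, no covariates) over 12576 genes, with Benjamini-Hochberg adjustment and a threshold of 0.05. Alternatives were library size only, upper quartile factors, DESeq2 1.42.0, no filter, limma 3.58.1 on log2(FPKM + 0.1) and log2(FPKM + 1), at least 10 counts in every library, an added limit of 1 on the absolute log2 fold change, a replicate block, the most abundant transcript in place of the sum for CD300 members, counts per length for the order of levels, the share of FPKM for transcript shares, and each library left out. After seeing the data, 2 more that sum *Cd300ld* relatives were added. In simulated libraries for this comparison (12576 genes, 50 changed per fold), edgeR recovered 30 genes at 1.5-fold, 46 at 2-fold, 45 at 3-fold, and 49 at 4-fold, with 14 unchanged genes called. Shared 50-base stretches came from GENCODE transcripts of GRCm38, and promoters from RefSeq. Other tools were Python 3.11.15, pandas 2.3.3, scipy 1.17.1, Biopython 1.88, and matplotlib 3.10.9.

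The members and lists were chosen with earlier results of these data known. Named genes were every CD300 gene with a count, each adaptor and phosphatase, the genes with the largest passing change in each direction of the other lists, the direct neighbors of CD300 genes, and the 3 genes closest in profile. Besides the 16 partner genes described, 1 more that had been listed is not reported here. Other markers were named after their values were seen.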

Additional observations from a re-analysis of the deposited data

How the results depend on the processing

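Across the alternatives, the log2 fold change of each of the 5 CD300 members kept its sign, and that of *Cd300ld* also kept its call in 15 of 15 fits. Among those, the fit on the most abundant transcript repeats the reported fit for every member but *Cd300lf*. For *Cd300lf*, only the replicate block lost the call (0.42, adjusted p = 0.0543), and leaving out 1 library gave 0.32 to 0.59. *Cd300a* passed with library size only (0.29) and with limma on log2(FPKM + 0.1) (0.29), and leaving out 1 library gave 0.07 to 0.22. For *Cd300lb*, leaving out 1 library gave -0.22 to -0.10. *Cd300c2* lost its call with upper quartile factors (-0.21), library size only (-0.12), log2(FPKM + 0.1) (-0.12), log2(FPKM + 1) (-0.11), and the replicate block (-0.26), and leaving out 1 library gave -0.34 to -0.19. Members that rose numbered 1, but 2 with library size only and with log2(FPKM + 0.1), and 0 with the replicate block. Members that fell numbered 2, but 1 with upper quartile factors, library size only, both FPKM fits, and the block, and 1 to 3 with 1 library left out (3 without WT replicate 2). The block also left *Inpp5d* above the threshold (adjusted p = 0.0601). *Hcst*, at 0.00, turned to -0.01 with DESeq2 and -0.09 with the block, and leaving out 1 library gave -0.13 to 0.20.

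Over all genes, 1869 rose and 2114 fell. These counts were 3019 and 1077 with library size only, 2927 and 1016 with log2(FPKM + 0.1), 2867 and 1011 with log2(FPKM + 1), 1216 and 1126 with the replicate block, 422 and 109 with an added absolute log2 fold change of 1, and, with 1 library left out, 1089 to 2460 and 926 to 2940. The median over all genes of the log2 fold change was 0.01 with TMM, 0.16 with library size only, 0.15 with log2(FPKM + 0.1), and 0.11 with log2(FPKM + 1). The replicate numbers are labels, and deviations of the same-numbered libraries correlated at -0.124 and -0.0504, so that no pairing was established, and the block leaves out *Adam17-/-* replicate 3 from the contrast within numbers. The fits without 1 WT library assume that the remaining WT library varies like the *Adam17-/-* group, whereas the WT libraries differed more from each other, so that their p-values may be too small. The 2 WT libraries limit the precision of every WT mean, and *Cd300c* and *Cd300lg* were too low to test. The cause of the changes with the processing was not tested.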

Other observations

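Other proteins that recognize phosphatidylserine or dying cells, or that bridge to them, were listed beside the CD300 family. Of 13 such genes, all had a count, 9 were tested, 1 rose and 2 fell at an edgeR adjusted p of 0.05 or less, and 6 did not pass. The 3 that passed are a share close to the 31.7% of all genes tested that did. Their median log2 fold change was -0.06. *Gas6*, the secreted ligand that bridges phosphatidylserine to the TAM receptor kinases, stood at 373 and 252 CPM in WT coculture and at 158, 166, and 149 CPM in *Adam17-/-* coculture. It fell in each *Adam17-/-* library (log2 fold change -0.99, SE 0.142, edgeR adjusted p = 0.00135) and kept its call in 13 of 13 alternatives, although the 2 WT libraries were far apart. *Stab1*, a scavenger receptor that also binds phosphatidylserine, was the other gene that fell, from 5554 and 4457 CPM to 2438, 2626, and 2807 CPM (log2 fold change -0.93, SE 0.114, edgeR adjusted p = 0.000739).

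*Ager*, which encodes a receptor of alarmins and advanced glycation end products, rose from 3.77 and 2.65 CPM to 5.36, 5.07, and 5.93 CPM (log2 fold change 0.76, SE 0.199, edgeR adjusted p = 0.0178). Without WT replicate 2 or *Adam17-/-* replicate 3 its call was lost (edgeR adjusted p = 0.0636 and 0.0577). The TAM receptor genes *Mertk* and *Axl* did not pass, with log2 fold changes of -0.06 and 0.19, and neither did *Havcr2*, at 0.01. *Timd4*, whose product tethers dying cells on resident macrophages, had 9 and 2 counts in WT coculture and 0, 0, and 1 in *Adam17-/-* coculture, under the filter on low counts. *Stab1* and the values for *Mertk*, *Axl*, *Havcr2*, and *Timd4* were chosen after their values were seen. The list was chosen with earlier results of these data known.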
